A study of Homo sapiens with 8 samples.

Results

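The genes of cholesterol synthesis, sterol movement and SREBP control form a list of 27 symbols, all of which were matched by exact symbol among the 46427 genes of the deposited table. They comprise 7 genes of the mevalonate arm, 3 of the steps from squalene to lanosterol, 8 of the steps from lanosterol to cholesterol, 4 of SREBP control, and 5 of sterol transport and esterification. RNA of RPE-1, a human retinal pigment epithelial line immortalised with telomerase, was sequenced as poly(A) RNA in 8 libraries. At 1 h and at 6 h the cells had received all-trans-retinal (atRAL) at 25 µM, atRAL with extracellular vesicles (EV) of tonsil mesenchymal stem cells at 2000000000 particles per ml, EV alone, or neither (control). Each condition was 1 library, so an effect could be tested only where the layout repeats it, and p-values measure the spread between these libraries alone.

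Of the 27 genes, 26 passed the filter on low counts. The exception was NPC1L1, a sterol importer of the gut and liver, which had 0 counts in all 8 libraries. Such a 0 allows up to 3 counts, or 0.0408 to 0.0657 CPM, the count scaled to library size. Total counts per library ran from 45566237 to 71822269, and the 27 genes held 0.141% to 0.164% of them. The labelled cell type was checked against 8 markers of retinal pigment epithelium, of which 5 (RLBP1, TTR, SERPINF1, TYRP1 and PMEL) stayed under 1 CPM in every library, whereas OTX2 and MITF reached 38.4 and 43.9 CPM. The keratins KRT8 and KRT18 were abundant, with EPCAM and CDH1 at or near 0, and summed leukocyte markers did not exceed 0.177 CPM.

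Cholesterol is built from acetyl-CoA through mevalonate, farnesyl diphosphate, squalene and lanosterol. The transcription factor encoded by SREBF2 lies in the endoplasmic reticulum as a precursor. When membrane sterol is low, its escort SCAP carries it to the Golgi for cleavage, and when sterol is high the INSIG proteins hold SCAP back. Many enzymes of the pathway, as well as INSIG1 and STARD4, are known SREBP targets. Pigment epithelial cells of the eye also take up cholesterol with shed photoreceptor membrane, and NPC1 and NPC2 export such cholesterol from lysosomes.

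Promoter windows of 300 bases, from 250 before to 50 after the start site, were read from RefSeq (GRCh38.p14) for 24 of the 27 genes; those of SQLE, ACAT2 and FDFT1 were not analysed here. The 24 genes had 31 windows, searched on both strands for 3 motifs of factors known at sterol-responsive promoters. TCACNCCAC, letters of a sterol regulatory element, was in 1.13% of all 35116 windows and in 1 of the 31 (3.23%), that of SREBF2. CCAAT, the letters bound by NF-Y, was in 34.6% of all windows and in 21 of the 31 (67.7%), which belong to 19 genes. GGGCGG, a GC box bound by SP1, was in 45% of all windows and in 28 of the 31 (90.3%), which belong to 22 genes. A match is a description of letters and not a bound site.

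The windows shown were chosen after the values and motif matches were seen. SREBF2 was taken for its match to the letters TCACNCCAC and INSIG1 for its rise with atRAL. STARD4, HMGCS1 and MSMO1 were taken for their levels with atRAL alone at 6 h. Each window is written 5′ to 3′ on the strand of its gene, with all matches to the motifs, on either strand, in capitals. SREBF2 (chr22:41832855-41833154, plus strand) held TCACCCCAC at bases 118 to 126 of the window, then 1 reverse CCAAT and 3 GC boxes. STARD4 (chr5:111512486-111512785, minus strand) held 2 CCAAT boxes and 1 GC box. The HMGCS1 window (chr5:43313363-43313662, minus strand), 1 of 2 for the gene, had 2 of each. MSMO1 (chr4:165327419-165327718, plus strand) had 4 CCAAT boxes and 2 GC boxes. INSIG1 (chr7:155297628-155297927, plus strand) had 1 CCAAT box and several GC boxes, 2 of which overlap by 1 base.
SREBF2: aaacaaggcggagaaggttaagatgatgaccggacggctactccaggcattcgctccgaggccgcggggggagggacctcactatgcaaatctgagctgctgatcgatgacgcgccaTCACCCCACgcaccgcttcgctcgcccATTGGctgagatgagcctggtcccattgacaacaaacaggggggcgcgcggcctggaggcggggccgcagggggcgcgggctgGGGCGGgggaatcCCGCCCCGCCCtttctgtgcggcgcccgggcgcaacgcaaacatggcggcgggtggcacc
STARD4: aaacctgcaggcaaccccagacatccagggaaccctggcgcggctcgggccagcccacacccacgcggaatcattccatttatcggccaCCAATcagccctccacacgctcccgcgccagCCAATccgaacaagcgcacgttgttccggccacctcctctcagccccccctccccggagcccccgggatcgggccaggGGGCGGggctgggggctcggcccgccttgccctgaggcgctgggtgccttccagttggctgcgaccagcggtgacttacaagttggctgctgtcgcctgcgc
HMGCS1: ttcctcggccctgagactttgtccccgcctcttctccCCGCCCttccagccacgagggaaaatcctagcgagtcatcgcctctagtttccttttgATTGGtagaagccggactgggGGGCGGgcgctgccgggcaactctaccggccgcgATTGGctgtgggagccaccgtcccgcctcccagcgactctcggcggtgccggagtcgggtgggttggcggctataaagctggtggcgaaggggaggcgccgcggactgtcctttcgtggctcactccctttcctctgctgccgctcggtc
MSMO1: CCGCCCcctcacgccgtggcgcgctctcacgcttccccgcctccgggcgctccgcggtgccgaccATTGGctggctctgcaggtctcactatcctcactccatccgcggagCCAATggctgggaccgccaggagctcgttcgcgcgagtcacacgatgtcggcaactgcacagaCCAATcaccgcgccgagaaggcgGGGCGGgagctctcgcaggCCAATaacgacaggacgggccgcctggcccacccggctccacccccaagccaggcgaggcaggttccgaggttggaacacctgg
INSIG1: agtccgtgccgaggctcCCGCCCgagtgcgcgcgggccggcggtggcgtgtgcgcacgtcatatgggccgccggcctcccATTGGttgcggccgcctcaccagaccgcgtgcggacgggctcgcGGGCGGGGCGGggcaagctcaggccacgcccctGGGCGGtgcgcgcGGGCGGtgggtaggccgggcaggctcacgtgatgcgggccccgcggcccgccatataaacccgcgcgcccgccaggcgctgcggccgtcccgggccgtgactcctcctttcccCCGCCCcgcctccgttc

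Per unit of transcript length, in FPKM as deposited, the 26 expressed genes differed widely in level. NPC2, the soluble lysosomal cholesterol carrier, was highest, with a mean of 338 FPKM and a range of 299 to 405 over the 8 libraries. It was followed by FDPS (47.9 FPKM, 37.2 to 55.7), FDFT1 (31.6 FPKM, 27.4 to 34.0), SREBF2 (27.1 FPKM, 24.6 to 29.2) and DHCR7 (22.0 FPKM, 20.6 to 23.9). NPC2 and FDPS stood clear of their neighbours in this order, whereas the ranges of SREBF2 and FDFT1 overlapped. At the low end were MVK (3.57 FPKM), SC5D (2.71 FPKM) and HSD17B7 (2.62 FPKM). Between libraries the spread differed by gene: the highest CPM was 3.83 times the lowest for STARD4 and 3.66 times for NPC1, against 1.07 times for DHCR7 and 1.20 times for SREBF2.

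**Figure D1:**
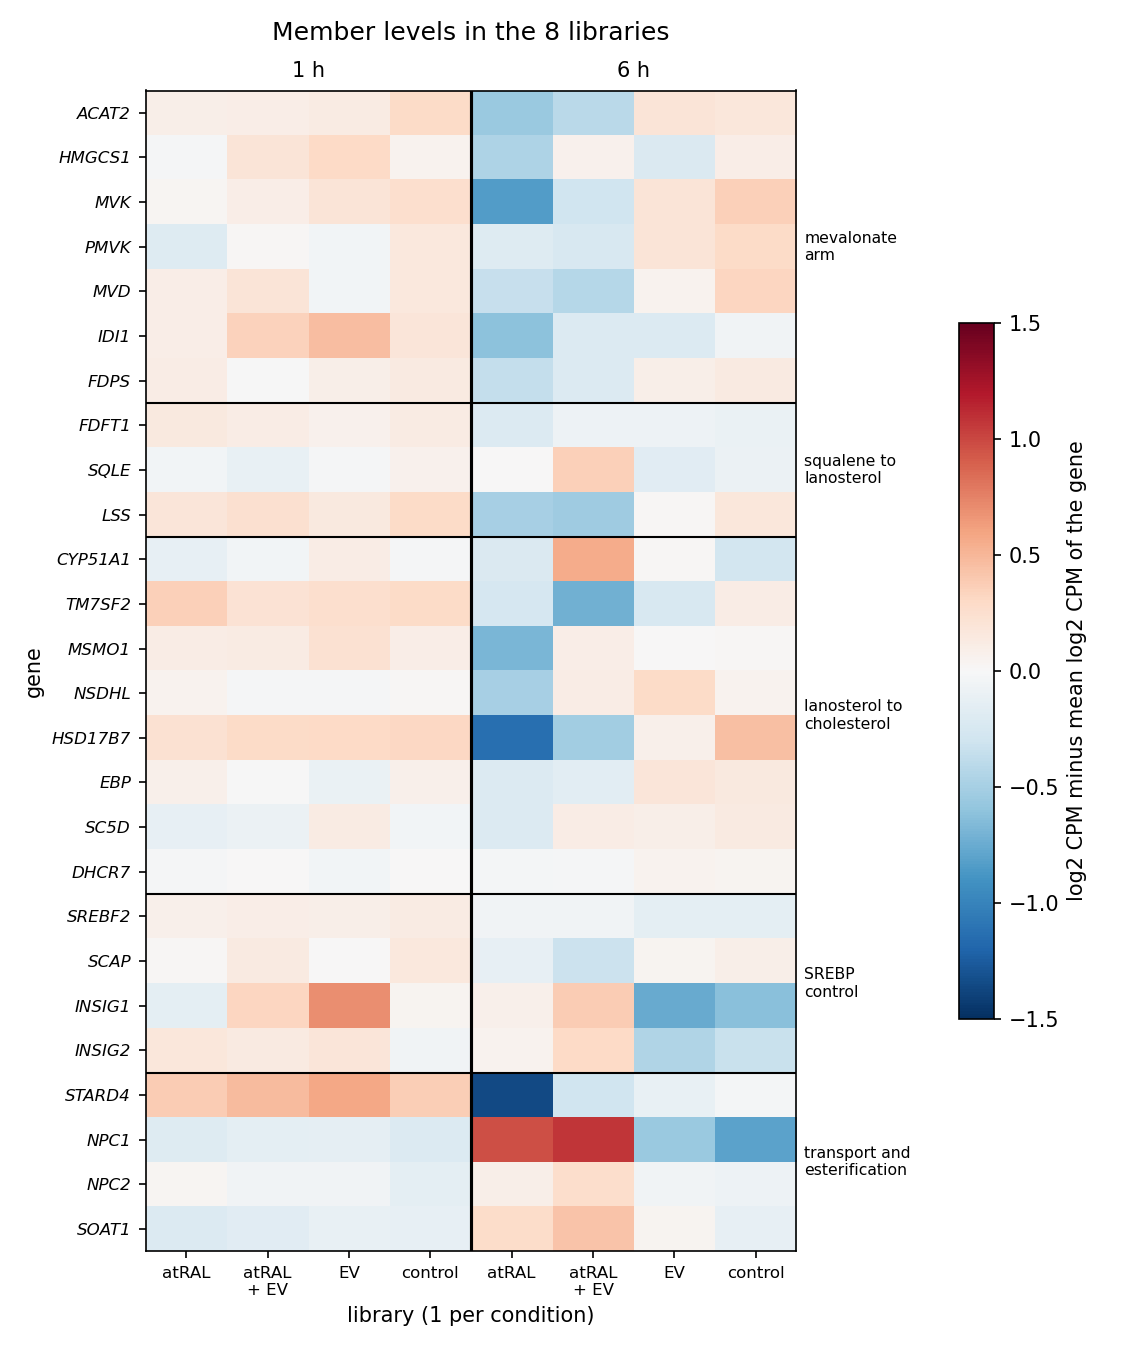
Levels of the 26 detected genes in the 8 libraries, as log2 CPM minus the gene's mean over libraries (colour), with rows grouped by role and columns by time and treatment. The 2 columns of atRAL at 6 h hold the highest values of NPC1 (188 and 202 CPM), and the atRAL library at 6 h holds the lowest value of STARD4 (19.5 CPM).

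The first question was what atRAL did to these genes at 6 h, comparing the 2 libraries with atRAL (atRAL, atRAL plus EV) with the 2 without (EV, control). With atRAL, the lysosomal cholesterol exporter NPC1, the brakes on SREBP (INSIG1 and INSIG2) and SOAT1 were higher than without it. Of the 18 enzymes of the pathway 10 were lower, as was the escort SCAP. The counts were 4 genes higher, 11 lower and 11 without a call among the 26 tested, at an adjusted p under 0.05 by edgeR's quasi-likelihood test. Over all 17044 genes 30.2% were called, 15.9% higher and 14.2% lower, so that the members' share of higher genes was near the background. The balance of directions turned on single libraries: leaving out the atRAL or the control library of 6 h gave 7 genes higher and 6 lower, and leaving out 1 of the EV libraries of 6 h (EV, atRAL plus EV) gave 4 higher and 13 lower. Leaving out any 1 library of 6 h sets 1 library against 1 for atRAL at that time, so these counts rest on single libraries. The median log2 fold change of the 26 was -0.28, against -0.01 for all genes. Their CPM did not overlap between the libraries with and without atRAL for 7 genes above and 13 below, where all genes gave 29.8% above and 29.9% below. In such bulk RNA, fewer cells of a type and less RNA per cell cannot be told apart.

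In the mevalonate arm 0 of 7 genes rose, 5 fell and 2 had no call, with a median log2 fold change of -0.45. MVK, the kinase that phosphorylates mevalonate, measured 6.19 and 9.03 CPM with atRAL (atRAL, then atRAL plus EV) against 12.7 and 14.2 CPM without (EV, then control). All 4 libraries of 1 h lay between 11.3 and 13.1 CPM, so the atRAL libraries of 6 h were the lowest of all 8. Its log2 fold change was -0.84 ± 0.16 (SE, n = 2 against 2, edgeR adjusted p = 0.00844), and -0.49 without the atRAL or the control library of 6 h. ACAT2, the cytosolic thiolase that joins 2 acetyl-CoA, measured 13.9 and 15.4 CPM with atRAL against 23.3 and 22.8 CPM without, and 21.6 to 24.9 CPM at 1 h. The log2 fold change was -0.66 ± 0.09, with an adjusted p of 0.00206 and again no overlap. ACAT2 shares 1141 bases with SOD2 and 397 with TCP1 on the opposite strand, and MVK shares 306 with MMAB. MMAB was at 13.6 and 14.1 CPM with atRAL against 16.2 and 17.7 CPM without at 6 h. The strand setting of the counting is not given in the sources used here.

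MVD, which decarboxylates mevalonate diphosphate, measured 16.2 and 15.4 CPM with atRAL against 21.3 and 25.8 CPM without at 6 h, and 20.0 to 23.5 CPM at 1 h. The libraries with atRAL at 6 h were the lowest of all, and the fall was 0.57 ± 0.11 on the log2 scale (adjusted p = 0.00603). FDPS (-0.39), the farnesyl diphosphate synthase, and PMVK (-0.45), the kinase that follows MVK, also fell. Both calls were lost without the control or without the atRAL library of 6 h (adjusted p at most 0.0586 and 0.0942). HMGCS1, the synthase that feeds the mevalonate step, had no call: 26.4 and 38.2 CPM with atRAL stood against 31.5 and 39.2 CPM without (-0.14 ± 0.20, adjusted p = 0.636). Its log2 ratio was -0.57 for atRAL alone over control and 0.28 for atRAL plus EV over EV, each 1 library against 1. Its lowest library of the 8 was that with atRAL alone at 6 h. IDI1, the isopentenyl diphosphate isomerase, was at 22.1 and 29.2 CPM with atRAL against 29.4 and 32.6 CPM without (adjusted p = 0.137). The same pairs of single libraries gave IDI1 log2 ratios of -0.56 and -0.01.

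Of the 3 genes from squalene to lanosterol, LSS alone was called. This cyclase, which folds the squalene epoxide into lanosterol, measured 55.4 and 54.1 CPM with atRAL against 79.4 and 88.3 CPM without, and 87.1 to 95.9 CPM at 1 h. The 2 atRAL libraries were nearly equal and well under every other library (-0.61 ± 0.08 log2, adjusted p = 0.00152). SQLE, the epoxidase that is often rate-limiting, lay on the other side: 38.4 and 49.0 CPM with atRAL against 34.2 and 36.1 CPM without at 6 h, and 35.5 to 40.1 CPM at 1 h. Its highest value was in the atRAL plus EV library, and it missed the threshold (0.30 ± 0.11 log2, adjusted p = 0.0695). Without the atRAL or the control library of 6 h, SQLE was at 0.52 log2, which is atRAL plus EV over EV. For atRAL alone over control SQLE was at 0.09, and each is 1 library against 1. FDFT1, the squalene synthase, was at 64.9 and 71.1 CPM with atRAL against 71.1 and 69.6 CPM without (adjusted p = 0.644).

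From lanosterol to cholesterol 0 of 8 genes rose, 4 fell and 4 had no call (median -0.32). HSD17B7, a ketosteroid reductase of the demethylation complex, measured 1.96 and 2.97 CPM with atRAL against 4.52 and 5.86 CPM without, and 5.02 to 5.29 CPM at 1 h. This was the largest fall of the 26 genes, to 0.47 times the level without atRAL (-1.08 ± 0.23 log2, adjusted p = 0.0113). The call was lost without the atRAL or the control library of 6 h (-0.61, adjusted p at most 0.0662). A transcribed copy, HSD17B7P2, had 20 to 93 counts per library, so reads may be split between them.

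TM7SF2, a sterol reductase, measured 11.8 and 8.54 CPM with atRAL against 11.9 and 15.1 CPM without at 6 h, and 16.3 to 18.0 CPM at 1 h. The atRAL and EV libraries were all but equal, and its call (-0.42 ± 0.10 log2, adjusted p = 0.0151) was lost without either EV library of 6 h and without an EV term (adjusted p at most 0.129). NSDHL (-0.37, adjusted p = 0.0391) and EBP (-0.35, adjusted p = 0.0196) also fell, but each call was lost on leaving out any 1 of 6 libraries, and the groups of NSDHL overlapped (-0.18 without the atRAL or the control library of 6 h). DHCR7, the reductase of the last step, was flat at 65.5 to 70.3 CPM in all 8 libraries. CYP51A1, MSMO1 and SC5D had no call (log2 fold changes 0.29, -0.30 and -0.16). Without the atRAL or the control library of 6 h (atRAL plus EV over EV), CYP51A1 was at 0.53 and MSMO1 at 0.10. Without either EV library (atRAL over control) they were at 0.05 and -0.70. Each of these values is 1 library against 1.

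**Figure D2:**
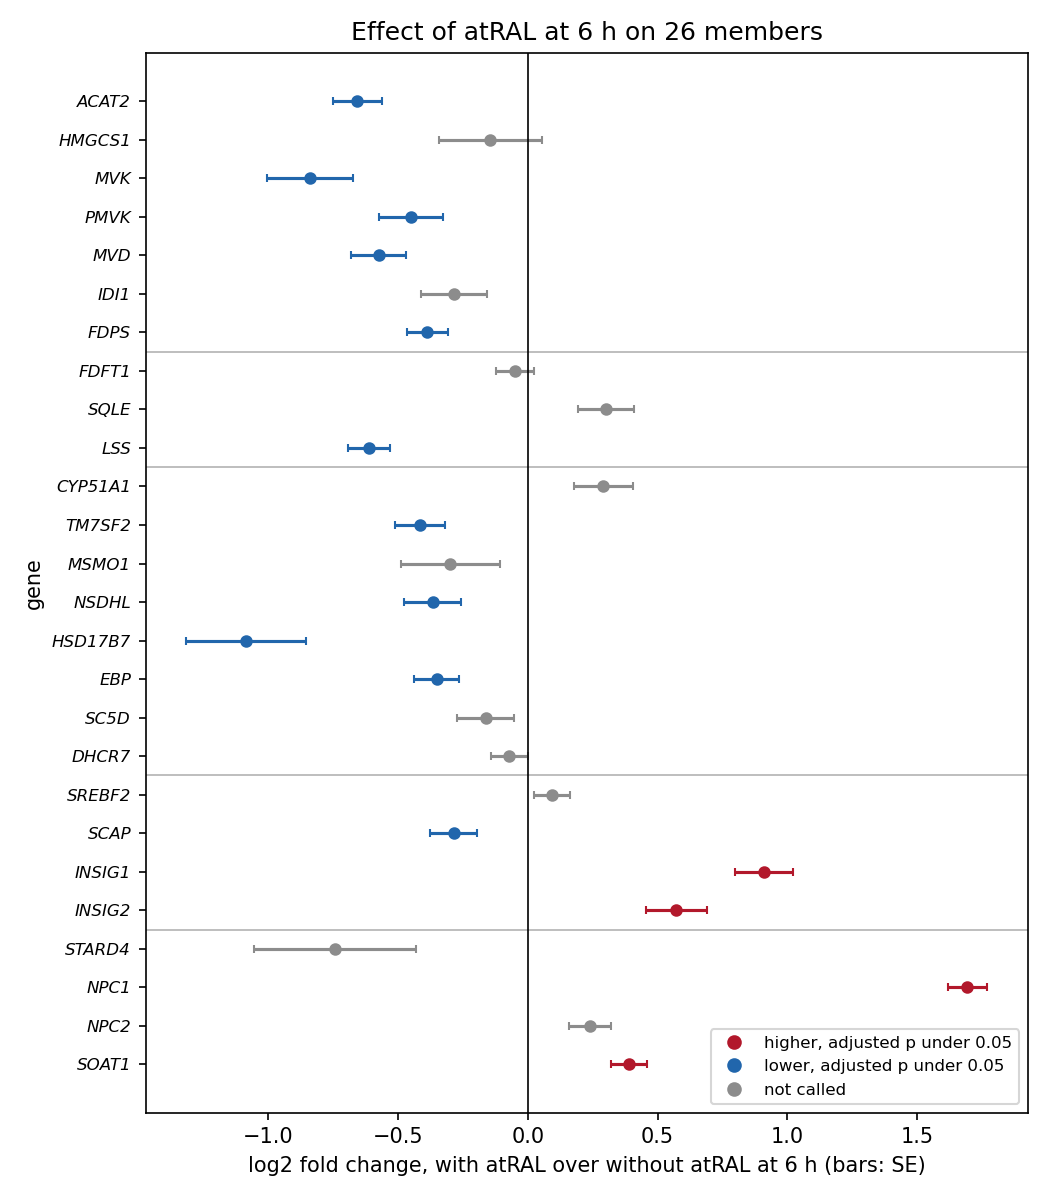
Log2 fold change with atRAL over without atRAL at 6 h for the 26 tested genes (x axis; bars are SE; 2 libraries against 2), grouped by role from the mevalonate arm at the top to transport at the bottom. NPC1 lies farthest to the right (1.69) and HSD17B7 farthest to the left (-1.08), with 11 called genes at the left and 4 at the right.

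Among the 4 genes of SREBP control, both INSIG genes rose and SCAP fell. INSIG1, the membrane protein that anchors SCAP in the endoplasmic reticulum, measured 61.6 and 76.0 CPM with atRAL against 34.8 and 38.1 CPM without at 6 h. The rise was 1.88-fold (0.91 ± 0.11 log2, adjusted p = 0.00122). At 1 h INSIG1 ran from 53.0 to 95.3 CPM, so the atRAL libraries of 6 h lay inside the range of 1 h and the libraries without atRAL below it. INSIG2, its paralogue, followed the same order: 26.2 and 31.1 CPM with atRAL against 18.4 and 20.0 CPM without at 6 h, and 24.3 to 28.6 CPM at 1 h (0.57 ± 0.12 log2, adjusted p = 0.00868). SCAP was at 60.5 and 52.8 CPM with atRAL against 68.0 and 69.9 CPM without (-0.29 ± 0.09 log2, adjusted p = 0.0448), a call lost on leaving out any 1 of 6 libraries. SREBF2 itself was at 155 and 156 CPM with atRAL against 146 and 146 CPM without, and 170 to 175 CPM at 1 h (0.09 ± 0.07 log2, adjusted p = 0.358).

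NPC1 showed the largest change of all 26 genes. It measured 188 and 202 CPM with atRAL against 65.7 and 55.2 CPM without at 6 h, and 83.6 to 87.6 CPM at 1 h. The rise was 3.24-fold (1.69 ± 0.08 log2, adjusted p = 1.97e-05), and by p-value it ranked 20 among all 17044 genes. NPC1 shares 604 bases with RMC1 on the opposite strand, which was at 21.0 and 21.4 CPM with atRAL against 15.4 and 14.5 CPM without. SOAT1, which esterifies cholesterol for storage, was at 84.6 and 94.1 CPM with atRAL against 71.95 and 64.5 CPM without, and 61.0 to 65.0 CPM at 1 h (0.39 ± 0.07 log2, adjusted p = 0.00523). NPC2, the partner of NPC1, was at 348 and 393 CPM with atRAL against 315 and 311 CPM without (0.24 ± 0.08 log2, adjusted p = 0.0571). The log2 ratio of NPC2 was 0.16 for atRAL alone over control and 0.32 for atRAL plus EV over EV, each 1 library against 1. STARD4, a cytosolic sterol carrier, had no call, and its 2 atRAL libraries were far apart: 19.5 and 40.8 CPM stood against 46.3 and 48.7 CPM (-0.74 ± 0.31 log2, adjusted p = 0.174). Its log2 ratio was -1.32 for atRAL alone over control and -0.18 for atRAL plus EV over EV, each 1 library against 1.

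Some markers of cell identity also differed at 6 h. The 8 summed markers of retinal pigment epithelium were 60.8 and 59.3 CPM with atRAL against 79.3 and 83.9 CPM without, and 44.6 to 51.1 CPM at 1 h. OTX2 and MITF made up most of this sum and were lower with atRAL, while BEST1, a chloride channel, lay the other way at 4.33 and 1.89 CPM with atRAL against 0.672 and 0.802 CPM without. The 5 summed mesenchymal markers were 1233 and 1265 CPM with atRAL against 1533 and 1542 CPM without. NT5E and THY1 were lower with atRAL, whereas COL1A1 and PDGFRB overlapped between the groups. The summed markers of simple epithelium overlapped as well, at 970 and 1091 CPM with atRAL against 1256 and 1056 CPM without. Their part in the results above was not tested.

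**Figure D3:**
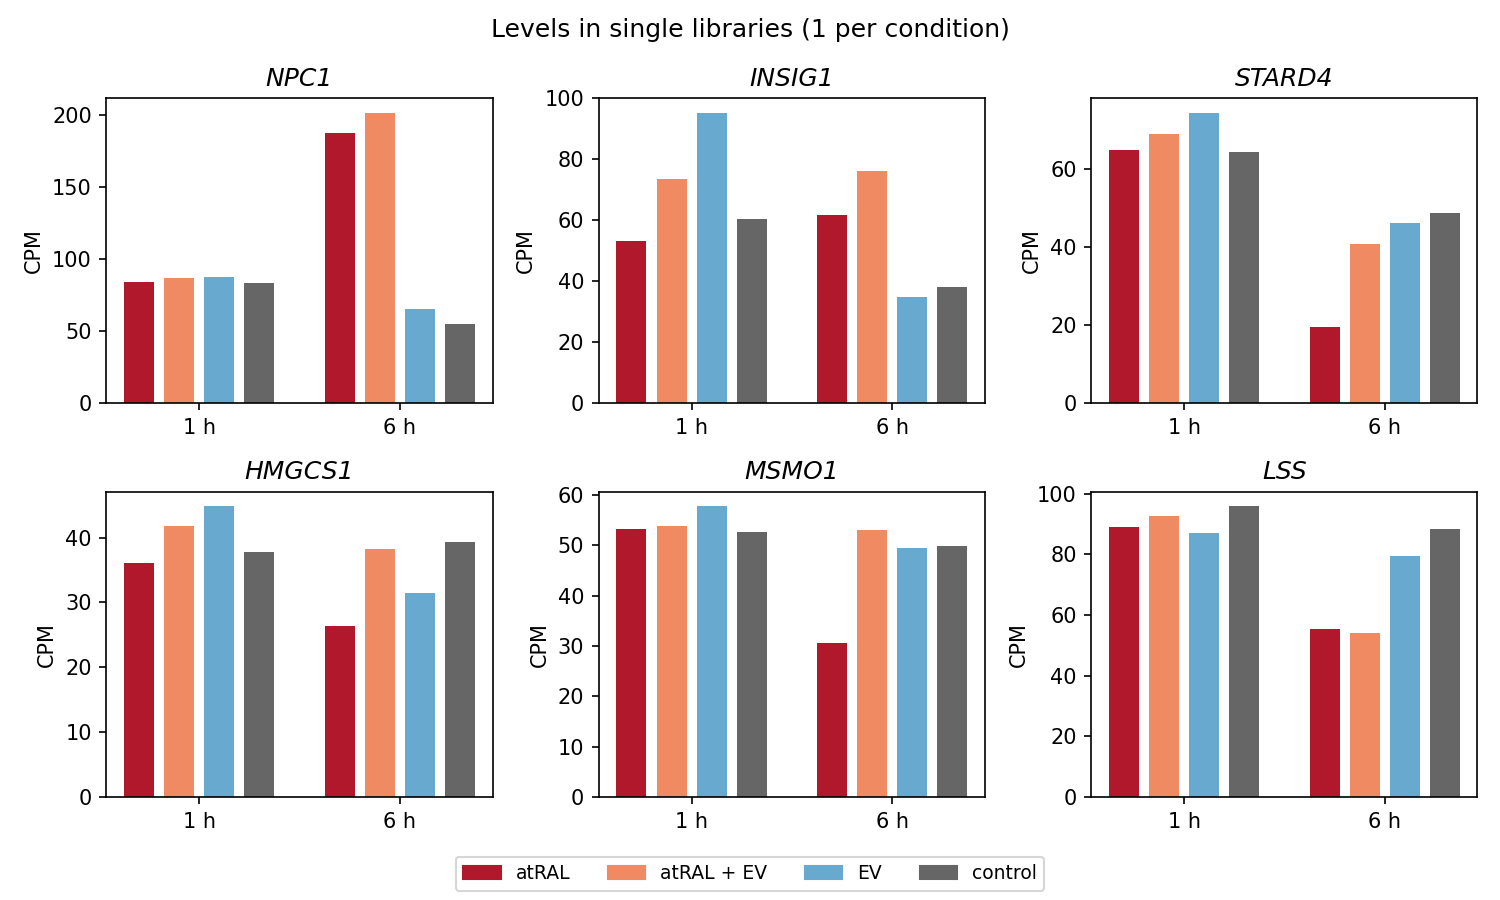
CPM of 6 genes in each library (bars, 1 library per condition, no error bar), by time and treatment. NPC1 is at 188 and 202 CPM in the atRAL libraries of 6 h; STARD4, HMGCS1 and MSMO1 are lowest at 6 h with atRAL alone, while LSS is low in both atRAL libraries (55.4 and 54.1 CPM).

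At 1 h, atRAL changed none of the 26 genes by edgeR's test, with a background of 0.00587% called. One gene had an unadjusted p under 0.05, against 1.9% of all genes, and DESeq2 called 0. That gene was INSIG1, at 53.0 and 73.4 CPM with atRAL against 95.3 and 60.4 CPM without (-0.28 ± 0.11 log2, adjusted p = 1). The groups overlapped, since the atRAL plus EV library exceeded the control.

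Whether the effect of atRAL differed between the times was tested directly, as the effect at 6 h minus that at 1 h. It was more positive at 6 h for NPC1, INSIG1 and SOAT1 and more negative for MVD, LSS and ACAT2, that is for 6 of 26 genes, against 13.4% of all genes (7.98% more positive, 5.43% more negative). The log2 difference was 1.69 ± 0.11 for NPC1 (adjusted p = 0.000272), 1.19 ± 0.16 for INSIG1 (adjusted p = 0.00434) and 0.46 ± 0.10 for SOAT1 (adjusted p = 0.0234). It was -0.67 ± 0.15 for MVD (adjusted p = 0.0283), -0.60 ± 0.11 for LSS (adjusted p = 0.0153) and -0.54 ± 0.13 for ACAT2 (adjusted p = 0.0357). NPC1 alone kept its call when any 1 library of 1 h was left out. The counts moved with single libraries of 6 h, where leaving out 1 sets 1 library against 1 for atRAL at that time. Without the atRAL or the control library of 6 h (atRAL plus EV over EV), SQLE was at 0.62 and CYP51A1 at 0.66. Without either EV library of 6 h (atRAL over control), STARD4 was at -1.27 and HSD17B7 at -1.54.

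Over time without atRAL, comparing EV and control at 6 h with the same at 1 h, edgeR called 0 of 26 genes against a background of 0.158%, and 6 genes had an unadjusted p under 0.05 against 16% of all genes. The 2 with the smallest p were lower at 6 h. INSIG1 was at 34.8 and 38.1 CPM at 6 h against 95.3 and 60.4 CPM at 1 h (-1.06 ± 0.19 log2, adjusted p = 0.117). NPC1 was at 65.7 and 55.2 CPM at 6 h against 87.6 and 83.6 CPM at 1 h (-0.51 ± 0.09 log2, adjusted p = 0.11). DESeq2 called both, with adjusted p = 1.15e-05 and 0.00112. On leaving out any 1 of the 4 atRAL libraries, edgeR called NPC1 and STARD4 lower (-0.51 and -0.55, adjusted p at most 0.0169 and 0.0176), and INSIG2 also when it was one of 1 h (-0.46). Calls over all 17044 genes rose as well, from 27 to 1064 without the atRAL and 1068 without the atRAL plus EV library of 1 h. For INSIG1 and NPC1 the libraries of 6 h lay wholly below those of 1 h.

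With atRAL, 2 genes were higher and 8 lower at 6 h than at 1 h, against 20.2% of all genes called (11.6% higher, 8.64% lower). NPC1 rose (1.18 ± 0.09 log2, adjusted p = 0.00118), as did SOAT1 (0.54 ± 0.09, adjusted p = 0.0101). INSIG1 (0.13 ± 0.18, edgeR adjusted p = 0.66) and INSIG2 (0.03 ± 0.13, edgeR adjusted p = 0.912) had no call over time with atRAL. STARD4 fell most, to 19.5 and 40.8 CPM at 6 h against 65.0 and 69.2 CPM at 1 h (-1.24 ± 0.24 log2, adjusted p = 0.023; -0.76 without the atRAL library of either time). HSD17B7 fell by 1.08, TM7SF2 by 0.77, LSS by 0.73, IDI1 and MVK by 0.63 each, ACAT2 by 0.57 and MVD by 0.53 on the log2 scale. For IDI1 this was 22.1 and 29.2 CPM at 6 h against 36.2 and 43.0 CPM at 1 h. The calls of NPC1, SOAT1, STARD4, TM7SF2 and LSS held on leaving out any 1 library, and those of the other 5 did not: each was lost without at least 2 of the 8 in turn. The log2 fold change of MVK was -0.40 without the atRAL library of either time. This comparison shares its 6 h atRAL libraries with that of atRAL at 6 h.

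The vesicles were the second treatment. With EV against without, edgeR called 0 of 26 genes at 6 h (background 1.7%) and 0 at 1 h (background 0.205%). Leaving out the EV or the control library of 6 h sets atRAL plus EV against atRAL alone at that time. Of the 26 genes STARD4 was then highest (1.07 log2) and TM7SF2 lowest (-0.47), each 1 library against 1. At 6 h, 4 genes had an unadjusted p under 0.05, against 18.6% of all genes. The smallest p was that of CYP51A1, the lanosterol demethylase, at 79.9 and 55.4 CPM with EV (atRAL plus EV, then EV) against 46.7 and 45.1 CPM without (0.53 ± 0.11 log2, adjusted p = 0.0625; DESeq2 called it with adjusted p = 0.00433). CYP51A1 overlaps 2 other gene models on its own strand, so its reads may be divided. At 1 h, INSIG1 alone had an unadjusted p under 0.05, against 4.52% of all genes. It was at 73.4 and 95.3 CPM with EV against 53.0 and 60.4 CPM without (0.56 ± 0.11 log2, adjusted p = 0.22; DESeq2 adjusted p = 0.00553), and the groups did not overlap. Without any 1 of the 4 libraries of 6 h, edgeR called it too (0.56, adjusted p at most 0.00152).

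Within the cells given atRAL, EV against no EV over both times gave 0 calls by edgeR among the 26 genes and 0% over all genes. Of the 26, 23 had a log2 value above 0, against 48.8% of all genes, and 2 had an unadjusted p under 0.05, against 3.12%. Without atRAL there were again 0 calls, 0% over all genes, with 11 of 26 values above 0 against 49.6% and 0 with an unadjusted p under 0.05 against 2.32%. The difference between these EV effects was called for 0 genes (0% of all), and DESeq2 called 0 of the 26 in all 3 tests. Leaving out the atRAL or the atRAL plus EV library of 1 h leaves the pair of 6 h alone, 1 library against 1. In cells given atRAL the log2 values with EV were then 1.08 for STARD4, 0.81 for MSMO1 and 0.79 for CYP51A1. In the difference STARD4 was at 1.01. The tests on all 8 libraries average the times, so a difference at 6 h only would count as spread.

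The single libraries of 6 h were therefore set side by side. With atRAL alone against control, 7 of 26 genes were at least 1.5-fold lower (10.8% of all genes with counts) and 2 higher (12.6%). With atRAL plus EV against EV, 2 were lower (6.83%) and 3 higher (8.23%). The 7 genes lower with atRAL alone were ACAT2, MVK, MVD, LSS, MSMO1, HSD17B7 and STARD4, and ACAT2 and HSD17B7 were past the same limit in the presence of EV. The median log2 ratio of the 26 was -0.36 without EV and -0.04 with EV, where all genes had -0.01 and -0.02.

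**Figure D4:**
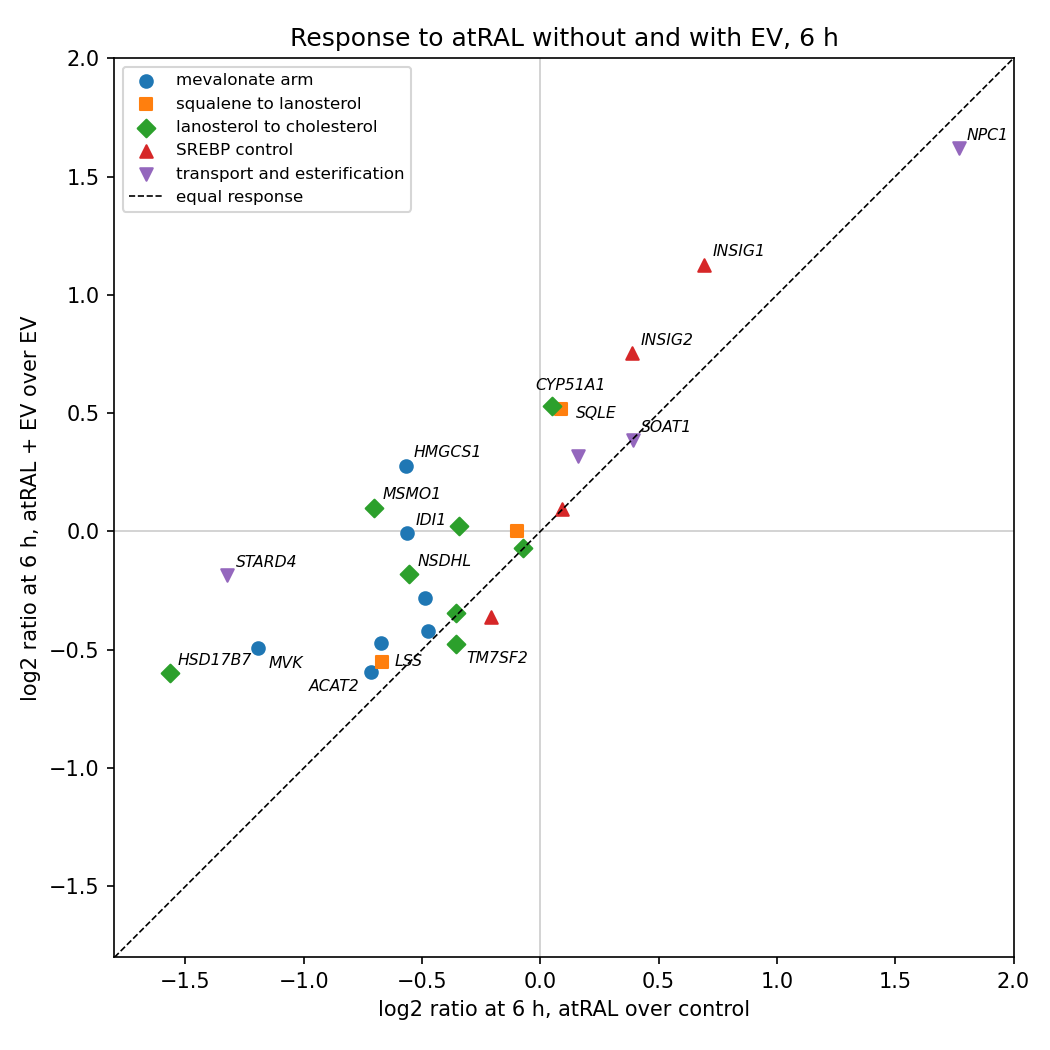
Log2 ratio of CPM at 6 h for atRAL over control (x axis) and atRAL plus EV over EV (y axis), 1 library against 1, for the 26 genes; symbols give the role and the dashed line equal ratios. STARD4 (-1.32 and -0.18) and MSMO1 (-0.70 and 0.10) lie well above the line, while NPC1 (1.77 and 1.62) lies near it.

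Comparing atRAL plus EV with atRAL alone at 6 h, 5 genes were at least 1.5-fold higher (4.68% of all genes) and 0 lower (5.6%). They were STARD4 (2.09-fold), MSMO1 (1.73-fold), CYP51A1 (1.71-fold), NSDHL (1.52-fold) and HSD17B7 (1.51-fold). Comparing atRAL plus EV with the control, 4 genes were higher (10.2%) and 5 lower (9.49%). EV against control, without atRAL, had 0 genes past the limit in either direction (1.84% higher and 2.26% lower of all genes). The summed CPM of the 18 enzymes was 513 with atRAL, 623 with atRAL plus EV, 648 with EV and 668 in the control at 6 h, against 673 to 700 CPM over the 4 libraries of 1 h. The atRAL library was thus the lowest of the 8. Among the pairs of 1 h, the ratio past the limit was that of INSIG1 for EV over control (1.58-fold; 1.3% of all genes were as much higher). These pairs share libraries with each other and with the tests above, and carry no replicate check.

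A test of whether EV acted differently with and without atRAL at 6 h was added after these values were seen. Its 1 residual degree of freedom is the same difference at 1 h, and edgeR moderates that spread with the spread of all genes tested. The test assumes that 6 h varies alike. It called 3 of 26 genes, all higher, against 1.68% of all genes (0.792% higher, 0.892% lower), and 21 of 26 values lay above 0, against 48.5%. An unadjusted p under 0.05 was reached by 9 of the 26 and by 11.6% of all genes. STARD4 was at 19.5 CPM with atRAL and 40.8 CPM with atRAL plus EV, where EV gave 46.3 and the control 48.7 CPM. The ratio of ratios was 2.20 (1.14 ± 0.15 log2, adjusted p = 0.00172). At 1 h the same 4 libraries lay at 65.0, 69.2, 74.6 and 64.5 CPM.

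HMGCS1 was at 26.4 CPM with atRAL and 38.2 CPM with atRAL plus EV, where EV gave 31.5 and the control 39.2 CPM (0.85 ± 0.16 log2, adjusted p = 0.0165). Its 1 h libraries lay at 36.2, 41.8, 44.8 and 37.8 CPM in that order. In HMGCS1 the EV library of 6 h was below the control, so part of the difference came from the cells without atRAL. MSMO1, the methylsterol oxidase, was at 30.6 CPM with atRAL and 53.0 CPM with atRAL plus EV, where EV gave 49.4 and the control 49.8 CPM (0.81 ± 0.15 log2, adjusted p = 0.0163). Its 1 h libraries stayed between 52.6 and 57.7 CPM, so that atRAL alone at 6 h stood apart from the other 7.

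For NPC1 the same difference was -0.15 ± 0.13 (adjusted p = 0.76), for LSS 0.12 ± 0.15 (adjusted p = 0.847) and for SREBF2 0.00 ± 0.13 (adjusted p = 1). HSD17B7 (0.98 ± 0.31, adjusted p = 0.189) and MVK (0.70 ± 0.20, adjusted p = 0.143) had large values that missed the threshold. On the FPKM scale 0 genes were called, though the size for STARD4 remained at 0.92 or above, and the calls of HMGCS1 and MSMO1 were also lost with DESeq2 and with no filter on low counts.

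For 4 neighbouring lists the counts with atRAL at 6 h are a description only. They are read against the 15.9% of all genes called higher and 14.2% called lower, and with 10 or 11 tested genes a list, 1 gene moves a share widely. Of 11 further factors of SREBP cleavage and sterol-dependent degradation, 3 rose and 1 fell. The ubiquitin ligase RNF145 was at 192 and 190 CPM with atRAL against 117 and 114 CPM without (0.73 log2, adjusted p = 0.000571). RNF139 (0.42), also a ubiquitin ligase, rose, and ERLIN2 (-0.50) fell. Of 10 genes of the isoprenoid branch, 3 rose and 1 fell. RABGGTB, a subunit of the transferase that prenylates Rab proteins, was at 96.1 and 84.1 CPM with atRAL against 48.8 and 45.0 CPM without (0.94 log2, adjusted p = 0.000652). FNTA (0.46) and GGPS1 (0.44) rose and FNTB (-0.35) fell.

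Of 10 fatty acid genes that are also known SREBP targets, 2 were called higher and 2 lower, which is near the share of all genes. ELOVL5, an elongase, was at 162 and 163 CPM with atRAL against 108 and 114 CPM without (0.55 log2, adjusted p = 0.00184). ACSL3 (0.29) rose, while ACSS2 (-0.29) and FADS2 (-0.25) fell. Of 11 tested genes of other sterol transport and storage, 0 rose and 3 fell: STARD5 (-1.29), GRAMD1B (-0.60) and NCEH1 (-0.49), the last a cholesteryl ester hydrolase.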

How the data were processed

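RPE-1 RNA was sequenced in 8 libraries, 1 per condition, grouped by sample title. The authors deposited raw read counts, whole numbers per gene, per the file headers. They also deposited FPKM, which is scaled to gene length and library size. HISAT2 2.1.0, StringTie 2.1.3b and GRCh38 come from the submitters' processing notes. The counter, its strand setting and the annotation were not given in the sources. A further 8 columns were not used.

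Genes passing filterByExpr (minimum count 10; 17044 genes) were scaled by TMM. They were tested two-sided with edgeR 4.0.16 (glmQLFit, robust) in R 4.3.3, with Benjamini-Hochberg adjustment over all of them and a threshold of 0.05. SE is the absolute log2 fold change over the square root of F. One model held time, with atRAL and EV nested in time, and gave the effects within each time. A second held time by atRAL, with EV nested in atRAL status, and gave the changes over time and EV by atRAL status. Each left 2 residual degrees of freedom. An interaction at 6 h was added to the first after values were seen. Another 2 contrasts of that model, each resting on 1 library against 1, were computed and are not reported. Pairs of libraries were compared as log2 ratios of CPM (prior count 2, at least 100 counts in 1 library, 1.5-fold limit). The tests were first run on simulated counts. Alternatives used DESeq2 1.42.0 and limma 3.58.1.

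The genes and lists were chosen with earlier results of these data known. Full statistics are given for up to 6 called genes per comparison by size of log2 fold change. Library values are given for these and for INSIG1, INSIG2, SREBF2, HMGCS1 and SQLE. Of other lists, up to 4 called genes are named, and 1 such gene is not reported here.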

Additional observations from a re-analysis of the deposited data

Results flagged for a closer look

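For 6 genes the effect of atRAL differed between 6 h and 1 h by the direct test in edgeR. The log2 difference, 6 h minus 1 h, was 1.69 for NPC1, 1.19 for INSIG1 and 0.46 for SOAT1. It was -0.67 for MVD, -0.60 for LSS and -0.54 for ACAT2. For INSIG1 the level without atRAL was also lower at 6 h than at 1 h, at 34.8 and 38.1 CPM against 95.3 and 60.4 CPM (edgeR adjusted p = 0.117).

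In the test added after the values were seen, 3 genes passed the threshold. It compared the EV effect at 6 h between cells with and without atRAL. Its 1 residual degree of freedom comes from 1 h, and edgeR moderates that spread with the spread of all genes tested. The planned test over both times called 0 of the 26 genes, both FPKM scales called 0, and DESeq2 and the setting with no filter each called 1, so a difference at 6 h is not established. The log2 difference, with minus without atRAL, was 1.14 for STARD4, 0.85 for HMGCS1 and 0.81 for MSMO1. All 3 had their lowest CPM of the 8 libraries with atRAL alone at 6 h, and each condition in this difference is 1 library.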

How the results depend on the processing

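Of the values of called genes recomputed under alternatives, 0 reversed. Values without a call were not checked in this way. For atRAL at 6 h, HMGCS1 (-0.14) and MSMO1 (-0.30) had the other sign for atRAL plus EV over EV alone (0.28 and 0.10). The atRAL calls at 6 h of NPC1, INSIG1, INSIG2, SOAT1, ACAT2, LSS, MVD and MVK held under the 9 other settings and without each of the 8 libraries; the count of genes called ran from 12 to 17 on leaving out 1 library (7 higher and 6 lower without the atRAL or the control library of 6 h, 4 and 13 without either EV library). The atRAL call of NSDHL was lost with no filter, DESeq2, the 4 libraries of that time and no EV term, that of SCAP with no filter, those 4 libraries and no EV term, that of EBP with the 4 libraries of that time, and that of PMVK with no filter and DESeq2. For atRAL at 6 h without either EV library, log2 values were -1.32 (STARD4), -0.70 (MSMO1), -0.57 (HMGCS1) and -0.56 (IDI1). Without the atRAL or the control library they were 0.52 (SQLE), 0.53 (CYP51A1) and 0.32 (NPC2). Each of these values is 1 library against 1. NPC2 was called with DESeq2 and with a minimum count of 50. The count for 6 h minus 1 h was 3 on log2(FPKM + 1) and 2 with no EV term, and ran from 1 (without any library of 1 h) to 14 (without either EV library of 6 h). The count for EV at 6 h was 1 with a minimum count of 50 and 1 with DESeq2. It rose without the EV or the control library of 6 h, which sets 1 library against 1. The count for EV at 1 h was 1 with DESeq2 and 1 in the 4 libraries of that time, and ran from 0 to 1. For EV with atRAL and its difference from EV without atRAL, the count rose without the atRAL or the atRAL plus EV library of 1 h. Either leaves the pair of 6 h alone, 1 library against 1. The count did not change for EV without atRAL and for atRAL at 1 h. Time without atRAL had 2 calls with DESeq2, and 3 without the atRAL or the atRAL plus EV library of 1 h, where 1064 and 1068 of all genes were called. Time with atRAL had 6 calls without the EV or control library of 6 h, and its count changed with other libraries too. The added difference at 6 h had 1 call with no filter, 1 with DESeq2 and 0 on both FPKM scales; leaving out a library gave no test of it. Where calls changed with a setting, the cause was not tested. Over all genes, EV at 6 h had 290 calls, but 49 with no filter, 544 with a minimum count of 50, 708 with DESeq2 and 34 or 65 on the FPKM scales; 6 h minus 1 h had 2286 calls, and 209 to 3743 on leaving out 1 library. No analysis paired by replicate number was possible because each condition is 1 library and the groups compared share fewer than 2 replicate numbers. With its EV term, the first model compared libraries with and without atRAL at the same EV status.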
